A study of Mus musculus with 11 samples.

Results

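The genes that license replication origins and open the DNA for copying were examined in gingival epithelium, from langerin-DTR mice given diphtheria toxin (DT) or PBS. The set comprised 10 genes, taken by name from the 19170 genes with values: the 6 subunits of the MCM ring (Mcm2, Mcm3, Mcm4, Mcm5, Mcm6 and Mcm7), the loading factors Cdc6 and Cdt1, and the activation factors Mcm10 and Cdc45. All 10 had values in every mouse. Mice of both groups carried the receptor for the toxin under the langerin promoter, so that DT removes langerin-positive cells such as Langerhans cells (LCs). The first injection was given at day 17 of life, the next at day 24 and the last at day 31, and the tissue was taken at 8 weeks of age from 5 PBS-treated and 6 DT-treated mice. The comparison therefore addressed whether licensing transcripts of the adult epithelium differed after an early loss of LCs.

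Licensing is the step by which each origin is prepared to fire once per cell cycle. In G1 phase the origin recognition complex recruits CDC6, which together with CDT1 loads the MCM ring onto DNA as an inactive double hexamer. At the start of S phase the ring is joined by CDC45 and the GINS complex, with MCM10 needed to activate it, and becomes the helicase that unwinds the fork. Geminin, encoded by Gmnn, binds CDT1 and blocks new loading. E2F transcription factors are known to drive many of these genes, and in a stratified epithelium such as the gingiva it is the basal keratinocytes that divide.

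E2F letter strings were searched in the 250 bases before and 50 bases after the RefSeq start of each gene (assembly GRCm38.p6), which was given for 9 of the 10 members (not for Mcm4). The letters TTTCCCGC, TTTCGCGC, TTTGCCGC and TTTGGCGC were sought on both strands. They were present for 6 of these 9 genes, beside 544 of 12912 genes with values and a promoter entry (4.21%) and 21 of 69 other replication genes (30.4%). Counted per promoter, 2.26% of all 32851 entries of this length held them. Base composition was not matched, and the GC content of the members' promoters ran from 38.7% in Cdc45 to 66.7% in Cdt1, beside a median of 52.7% over all promoters. The stretches with matches are shown for the 6 genes that held any of these strings, and not all of them held the same string. Matches are in capitals, and a match on the other strand reads as its reverse complement.
Mcm5 (the bases before the start, chr8:75109259-75109508, plus strand): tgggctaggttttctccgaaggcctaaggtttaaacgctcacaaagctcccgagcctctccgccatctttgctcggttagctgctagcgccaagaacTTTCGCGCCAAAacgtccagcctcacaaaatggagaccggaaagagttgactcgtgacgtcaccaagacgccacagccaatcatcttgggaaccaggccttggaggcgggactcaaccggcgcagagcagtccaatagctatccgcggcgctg
Mcm6 (the bases before the start, chr1:128359706-128359955, minus strand): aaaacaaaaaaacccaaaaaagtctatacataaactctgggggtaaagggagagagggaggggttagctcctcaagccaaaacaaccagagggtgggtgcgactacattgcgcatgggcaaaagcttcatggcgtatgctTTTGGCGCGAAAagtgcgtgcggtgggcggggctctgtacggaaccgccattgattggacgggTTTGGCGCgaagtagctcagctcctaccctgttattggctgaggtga
Mcm7 (from before the start into the first exon, chr5:138171859-138172133, minus strand): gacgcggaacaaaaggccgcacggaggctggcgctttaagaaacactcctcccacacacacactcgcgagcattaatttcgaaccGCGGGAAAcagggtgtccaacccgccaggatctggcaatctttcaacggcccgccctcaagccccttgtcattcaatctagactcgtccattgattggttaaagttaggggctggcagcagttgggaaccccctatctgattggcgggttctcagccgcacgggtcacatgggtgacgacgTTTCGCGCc
Cdc6 (the bases before the start, chr11:98907901-98908150, plus strand): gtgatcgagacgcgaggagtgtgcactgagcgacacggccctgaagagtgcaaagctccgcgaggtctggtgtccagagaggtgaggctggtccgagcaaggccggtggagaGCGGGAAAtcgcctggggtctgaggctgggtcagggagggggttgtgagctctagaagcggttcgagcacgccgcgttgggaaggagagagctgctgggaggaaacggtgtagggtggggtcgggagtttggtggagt
Mcm3 (a short stretch past the start, chr1:20820266-20820294, minus strand): gGCGGGAAAacttgggaagtTTTGGCGCc
Cdt1 (a short stretch past the start, chr8:122568036-122568064, plus strand): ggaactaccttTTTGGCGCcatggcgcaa
Mcm6 held 3 matches, at 110, 106 and 47 bases before the start, and Mcm5 held 2, at 153 and 149 bases before it. The first pair in Mcm6 and the pair in Mcm5 overlap on opposite strands and so count overlapping letters. Mcm7 had a match 165 bases before and another 16 bases after the first of its 2 listed starts, and none at the other start. Mcm3 had matches 19 and 38 bases past its start, Cdt1 had 1 match 32 bases past it, and Cdc6 had 1 match 138 bases before it. All distances are from the RefSeq start, which can differ from the start of the GENCODE gene positions given below. The Cdc6 and Mcm7 stretches lie wholly inside those GENCODE positions, so their bases before the RefSeq start are not before the GENCODE start. Mcm2, Mcm10 and Cdc45 held none of the 4 strings in this window. The letters CCAAT, bound by NF-Y, were present for 7 of the 9 genes, for 42.1% of genes with values and in 37.4% of all promoters, and the letters TTTGAA, found in the element of genes expressed late in the cell cycle, were present for 2 of 9, for 15.7% of genes with values and in 17.9% of all promoters. A match describes letters and does not show binding.

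**Figure D1:**
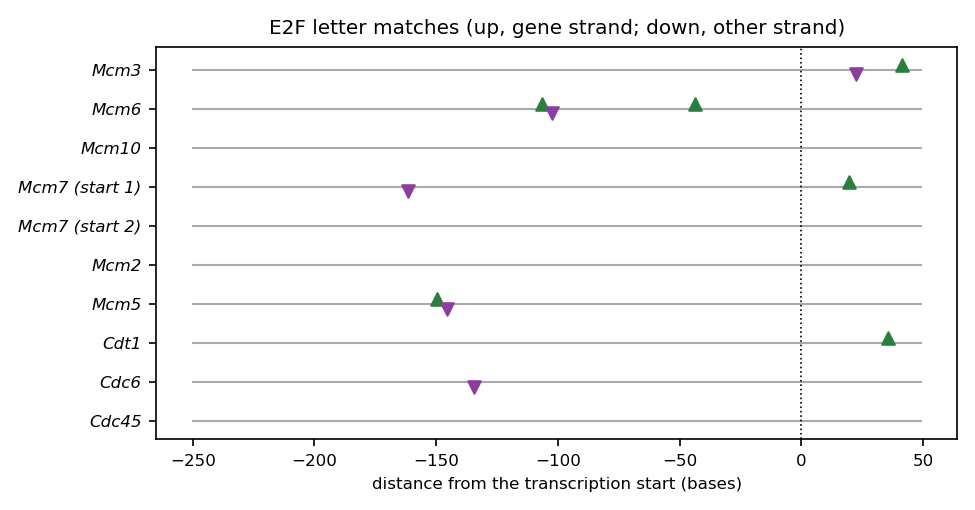
Positions of the E2F letter matches around the RefSeq start of 9 licensing genes. The horizontal axis gives the distance from the start in bases, each grey line is 1 promoter (Mcm7 has 2), and triangles point up for matches on the strand of the gene and down for the other strand. Matches lie on 6 of the 9 genes, up to 3 in Mcm6, and are absent from the lines of Mcm2, Mcm10 and Cdc45.

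The values are normalized counts, that is, reads per gene divided by a size factor for each mouse. Between 17509328 and 24325513 reads per mouse lay behind them, and the members rested on between 26 reads (Cdc6) and 576 reads (Mcm7) per mouse. On the first principal component PBS 3 and PBS 5 lay at 17.2 and 20.9, far from PBS 1, PBS 2 and PBS 4 at -13.0 to -11.9, and the counts and medians of the members, the ring and the other replication genes are therefore also given without them. All 7 basal and all 10 suprabasal keratinocyte genes listed had values, and the basal ones summed to 302234 or more normalized counts in every mouse. Genes of other cells had values too, so having a value does not identify the tissue. In DT-treated mice 6 fibroblast genes summed to 1109 to 1594 normalized counts and 12 leukocyte genes to 737 to 3837. In PBS-treated mice these sums were 1252 to 1450 and 893 to 3608. Cd207, which encodes langerin, was at 23.9 ± 13.4 normalized counts in PBS-treated mice (SD, n = 5) and 18.4 ± 1.99 in DT-treated mice (SD, n = 6), a difference that did not pass the test (limma, adjusted p = 0.853). By flow cytometry, the paper reports LCs as absent during weaning and back at normal frequencies by the age at which this tissue was taken. The Cd207 level at this age therefore does not test whether the earlier loss occurred. In whole tissue, fewer cells of a type and less RNA per cell cannot be told apart. No label says whether any mice were littermates.

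No licensing gene passed the test between DT-treated and PBS-treated mice. Their log2 fold changes, on the log2(normalized count + 1) scale, ran from -0.27 (Mcm3) to -0.04 (Cdc6) with a median of -0.20. In the limma fit over all genes, 0 of 10 members passed the adjusted p threshold of 0.1, where 107 of 19170 genes (0.558%) did. At an unadjusted p under 0.05, 1 of 10 members (Mcm7) was lower and 0 were higher, beside 6.19% and 5.31% of all genes. The value was below 0 for 10 of 10 members and for 52.7% of all genes, whose median was -0.01. These genes share regulation and mice, and the count of 10 is therefore not 10 independent observations. Without PBS 3 and PBS 5 the median of the members was -0.08, 9 of 10 were below 0 (52.6% of all genes), and 0 passed, whereas 1967 genes (10.3%) passed in that fit. PBS 3 and PBS 5 were chosen from these same values and in the PBS group only, so the p-values of that fit can be too small.

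**Figure D2:**
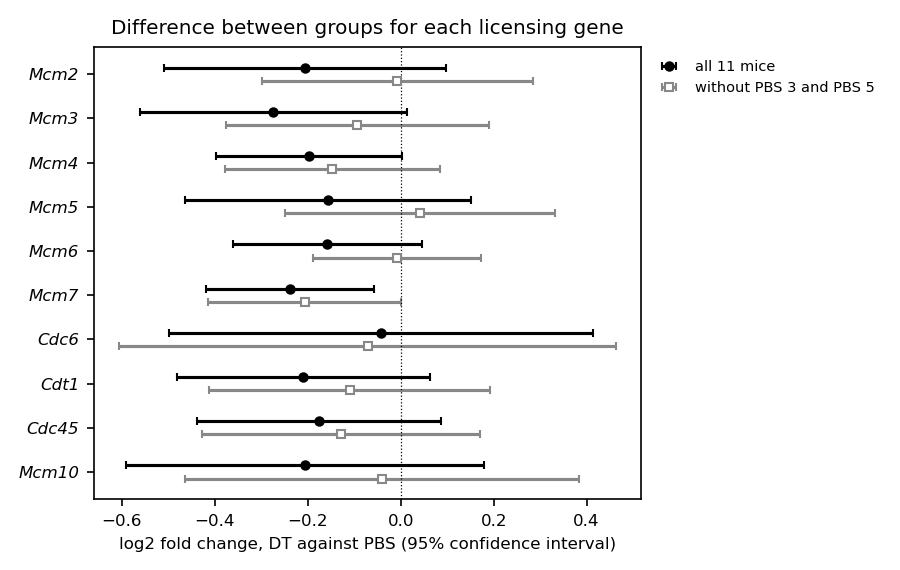
Log2 fold change of each licensing gene, DT against PBS, with its 95% confidence interval. Filled circles show all 11 mice, and open squares leave out PBS 3 and PBS 5. With all mice the interval of Mcm7 alone lies below 0, from -0.42 to -0.06, and without the 2 mice the values of Mcm2 and Mcm6 are close to 0 and Mcm5 lies at 0.04.

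Mcm7 (ENSMUSG00000029730, chr5:138164583-138172422, minus strand), a ring subunit that pairs with MCM3 and MCM4, was the member with the smallest p. From PBS 1 to PBS 5 it stood at 594, 451, 546, 448 and 497 normalized counts. In DT-treated mice the lowest value was 384, the median 424 and the highest 504. DT 6 was the highest of the treated mice and lay above 3 of the 5 PBS-treated mice, and the other 5 treated mice lay below every PBS value. The means were 507 ± 62.9 (SD, n = 5) and 429 ± 41.1 (SD, n = 6), a log2 fold change of -0.24 (SE 0.09), and limma gave an adjusted p of 0.290. The interval of this difference, from -25.2% to -3.90%, is not adjusted for the number of genes tested.

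Mcm3 (ENSMUSG00000041859, chr1:20802968-20820312, minus strand) had the largest difference of the set with all mice. PBS-treated mice held 231, 201, 281, 172 and 268 normalized counts, and DT-treated mice ran from 147 over a median of 199.6 to 216. PBS 2 and PBS 4 lay within the DT range, whereas PBS 1, PBS 3 and PBS 5 lay above it. The log2 fold change was -0.27 (SE 0.14), with an interval from -0.56 to 0.01 and a limma adjusted p of 0.451. Without PBS 3 and PBS 5 it was -0.09, and Mcm7 (-0.21), Mcm4 (-0.15), Cdc45 (-0.13) and Cdt1 (-0.11) lay further from 0 than Mcm3.

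Mcm4 (ENSMUSG00000022673, chr16:15623897-15637400, minus strand), which carries sites for the kinase that fires origins, stood at 424, 321, 384, 305 and 371 normalized counts in the PBS-treated mice. The DT-treated mice ran from 261 to 345 with a median of 316. Here too PBS 2 and PBS 4 fell among the treated mice and the other 3 lay above them. The log2 fold change was -0.20 (SE 0.09, limma adjusted p = 0.438).

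Mcm2 (ENSMUSG00000002870, chr6:88883474-88898780, minus strand), whose protein also binds histones at the fork, spread more widely. Its values were 293, 197, 349, 227 and 318 in PBS 1 to PBS 5 and ran from 183 to 296 in the DT-treated mice, with a median of 241. The groups overlapped over most of their range, and the log2 fold change was -0.21 (SE 0.14, limma adjusted p = 0.618). Without PBS 3 and PBS 5 it was -0.01, with an interval from -0.30 to 0.28.

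MCM5 forms, with MCM2, the gate through which the ring opens around DNA, and MCM6 lies on the other side of MCM2. Mcm5 (ENSMUSG00000005410, chr8:75109569-75128439, plus strand) stood at 405, 290, 399, 261 and 487 normalized counts in PBS-treated mice and between 270 and 385 in DT-treated mice, with a median of 320. PBS 4 was lower than every treated mouse, PBS 5 was the highest of all 11, and the log2 fold change was -0.16 (SE 0.14, limma adjusted p = 0.730). Mcm6 (ENSMUSG00000026355, chr1:128331590-128359664, minus strand) stood at 467, 347, 511, 390 and 521 normalized counts and between 376 and 429 in DT-treated mice, with a median of 391. The treated mice were close together for this gene, with a coefficient of variation of 5.01% where counting error alone gives 4.87%, and the PBS-treated mice had 17.1%. Its log2 fold change was -0.16 (SE 0.10, limma adjusted p = 0.555).

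The loading factors differed from one another in spread. Cdt1 (ENSMUSG00000006585, chr8:122568015-122573554, plus strand) was at 132, 101, 120, 96.5 and 141 normalized counts in PBS-treated mice and between 81.6 and 125 in DT-treated mice, with a median of 101. The ranges overlapped, and the log2 fold change was -0.21 (SE 0.13, limma adjusted p = 0.561). Cdc6 (ENSMUSG00000017499, chr11:98907801-98923940, plus strand) was at 53.2, 25.3, 36.2, 61.0 and 47.2 normalized counts and between 33.4 and 56.0, with a median of 38.9. Both the lowest and the highest value of Cdc6 belonged to PBS-treated mice, PBS 2 and PBS 4, and the treated mice lay between them. Its log2 fold change was -0.04 (SE 0.21, limma adjusted p = 0.963). The interval, not adjusted for the number of genes tested, ran from -29.2% to 33.2%, so differences within it were not excluded.

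The activation factors were both low and overlapped between groups. Cdc45 (ENSMUSG00000000028, chr16:18780447-18811987, minus strand) held 91.7, 70.9, 96.6, 76.5 and 76.6 normalized counts in PBS-treated mice and 61.9 to 85.4 in DT-treated mice, with a median of 72.4. Its spread was 13.4% of the mean in PBS-treated and 11.5% in DT-treated mice, close to the 11.3% that counting error alone gives. Mcm10 (ENSMUSG00000026669, chr2:4989714-5012791, minus strand) held 76.9, 46.6, 83.5, 50.1 and 68.2 normalized counts and 41.3 to 69.3, with a median of 58.3. The log2 fold changes were -0.18 (SE 0.12) for Cdc45 and -0.21 (SE 0.18) for Mcm10, with limma adjusted p-values of 0.623 and 0.713.

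**Figure D3:**
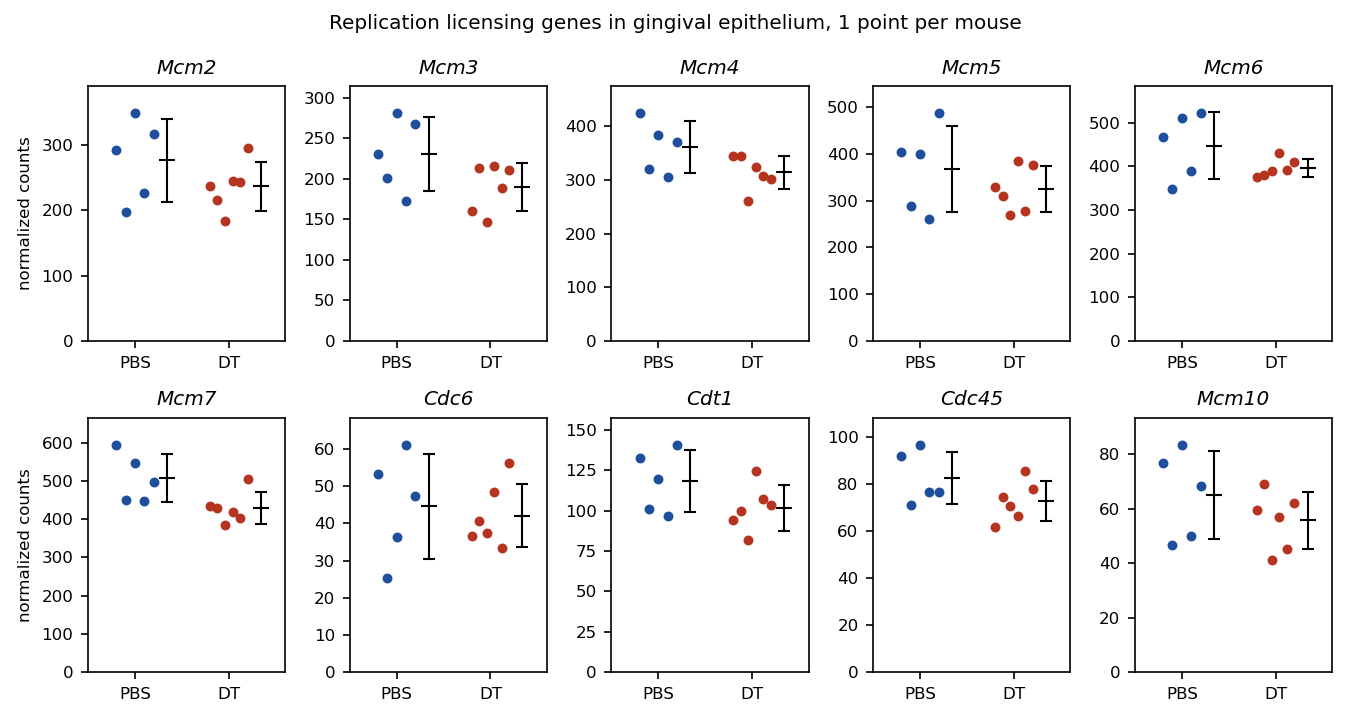
Normalized counts of the 10 licensing genes, with 1 point per mouse (5 PBS, 6 DT) and the mean ± SD beside each group. Every vertical axis starts at 0, and the 2 groups overlap in all 10 panels.

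Levels were compared between genes only per kilobase of the longest principal coding transcript of the annotation. The labels name a poly(A) mRNA kit, whereas the methods refer to a guide for libraries read from the 3' end, for which counts do not scale with length, so this order holds only if reads were spread along the transcripts. In PBS-treated mice Mcm7 was highest at 171 ± 21.2 normalized counts per kilobase (SD, n = 5), followed by Mcm6 at 154 ± 26.2. Mcm7 was above Mcm6 in 8 of 11 mice. Mcm5 (109 ± 27.3) and Mcm4 (101 ± 13.5) did not separate, with Mcm5 the higher in 7 of 11 mice, and Mcm2 (82.1 ± 18.8) was above Mcm3 (76.0 ± 14.9) in 9 of 11. The loading and activation genes were lower: Cdt1 at 53.9 ± 8.75, Cdc45 at 38.5 ± 5.14, Mcm10 at 13.4 ± 3.33 and Cdc6 at 9.66 ± 3.05. Each step from Mcm3 to Cdt1, Cdt1 to Cdc45 and Cdc45 to Mcm10 held in 11 of 11 mice. The same order of means held in DT-treated mice, from 145 for Mcm7 to 9.11 for Cdc6.

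The 6 ring genes varied together from mouse to mouse, and more within the PBS group than between the groups. For each mouse, the log2 level of each ring gene was taken relative to its mean over the 11 mice and averaged over the 6 genes. This mean was 0.26, -0.16, 0.32, -0.17 and 0.31 in PBS 1 to PBS 5. In the treated mice it was -0.11, -0.08, -0.33, 0.02, -0.14 and 0.07 for DT 1 to DT 6. All 6 ring genes were above their own mean in PBS 1, PBS 3 and PBS 5, and 0 of 6 were in PBS 2, PBS 4, DT 3 and DT 5. The group means were 0.11 ± 0.25 (SD, n = 5) and -0.09 ± 0.14 (SD, n = 6), a difference of -0.21 that is smaller than the spread among the PBS-treated mice. Without PBS 3 and PBS 5 the difference was -0.07. The split of the PBS-treated mice into a higher 3 and a lower 2 was seen in the values and is described without a test. It was not the split seen on the first principal component, since PBS 1 was high for the ring and lay with PBS 2 and PBS 4 there.

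**Figure D4:**
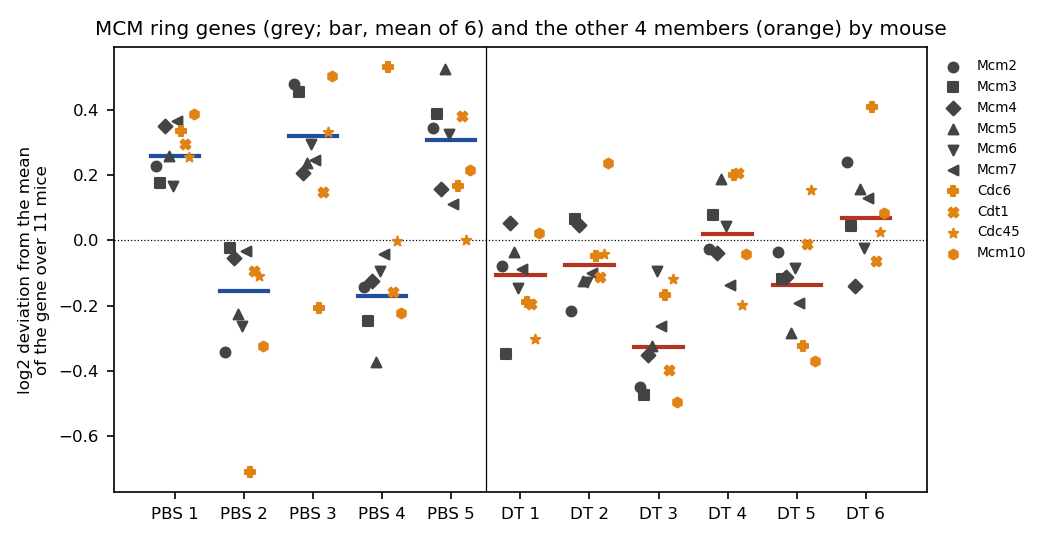
Log2 deviation of each licensing gene from its mean over 11 mice, by mouse. Grey symbols are the 6 ring genes, horizontal bars are their mean (blue PBS, red DT), and orange symbols are the other 4 members. The bars of PBS 1, PBS 3 and PBS 5 lie at 0.26 to 0.32, those of PBS 2 and PBS 4 at -0.17 to -0.16, and the lowest bar is that of DT 3 at -0.33.

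To describe how closely the members followed each other, the group means were removed and Pearson's r was taken over the 11 mice. Over the 15 pairs of ring genes r ran from 0.52 to 0.83 with a median of 0.70. Against the mean of the other 5 ring genes, Mcm2 and Mcm5 were closest, both with r = 0.88, and Mcm4 was the least close with r = 0.70. Mcm10 (r = 0.87, rho = 0.78) and Cdt1 (r = 0.85, rho = 0.70) followed the ring about as closely as its own subunits did. Cdc45 (r = 0.46, rho = 0.48) and Cdc6 (r = 0.32, rho = 0.15) had lower values. Without PBS 2 and PBS 4, the mice farthest from the median of the ring, r was 0.70 for Mcm10 and Cdt1, 0.56 for Cdc6 and 0.03 for Cdc45, so that the relation of Cdc45 rests on these 2 mice. Ring genes fell as well, even against a mean that includes each of them. There r was 0.47 for Mcm4, 0.52 for Mcm6 and 0.63 for Mcm7, and 0.82 or more for Mcm2, Mcm3 and Mcm5. These points share libraries, and no test was made. Cdc6, for which PBS 2 was the lowest and PBS 4 the highest mouse, also differed from the ring in the order of the PBS-treated mice.

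Outside the set, the 5 genes whose pattern over the mice was most like the ring, taken from 10019 genes averaging 100 or more normalized counts, were Uhrf1, Brca1, Acat2, Pclaf and Cdca5. Uhrf1, which recruits the maintenance DNA methyltransferase to newly copied DNA, had r = 0.99 and rho = 0.93. From PBS 1 to PBS 5 it was at 433, 305, 425, 284 and 443 normalized counts, and DT-treated mice held 243 to 343. Its split of PBS 1, PBS 3 and PBS 5 from PBS 2 and PBS 4 follows from its choice by likeness to the ring. Brca1, a repair gene (r = 0.97, rho = 0.90), Acat2, an enzyme of acetyl-CoA metabolism (r = 0.93, rho = 0.94), Pclaf, which encodes a PCNA-binding protein (r = 0.91, rho = 0.95), and Cdca5, needed for sister chromatid cohesion (r = 0.90, rho = 0.86), followed. Without PBS 2 and PBS 4, the mice farthest from the median, r was 0.97 for Uhrf1, 0.90 for Brca1, 0.77 for Acat2 and for Pclaf and 0.76 for Cdca5. None of the 5 passed the test between groups, with log2 fold changes from -0.32 (Uhrf1, limma adjusted p = 0.339) to -0.01 (Acat2, limma adjusted p = 0.985). Over all 10019 genes the median r with the ring was 0.02 and 17.1% had r above 0.5, as had 37 of 70 other replication genes (52.9%) with the same minimum mean.

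The ring also varied with markers of other cells. The summed level of 7 of 7 Langerhans cell markers was 2595 to 5608 normalized counts in PBS-treated and 2023 to 3557 in DT-treated mice, and their mean log2 deviation had r = 0.78 and rho = 0.80 with the ring over the 11 mice, or r = 0.68 without PBS 2 and PBS 4. PBS 3 and PBS 5 were high for both the ring and these markers. Without them the median log2 fold change of the 7 markers was 0.02, beside -0.34 with all mice, and 0 passed in either fit. PBS 1 was high for the ring only, with a Langerhans cell deviation of -0.07. For 12 of 13 leukocyte markers r was 0.67, or 0.54 without PBS 2 and PBS 4. For the basal keratinocyte markers it was -0.41 with and without these mice. The part of these cells in the variation of the licensing genes was not tested. Immediate early genes, of which 8 of 9 passed as higher in DT-treated mice, ran from 66262 to 106123 summed normalized counts there and from 23846 to 62544 in PBS-treated mice. Their r with the ring was -0.37, or -0.13 without PBS 2 and PBS 4, and their part was not tested either.

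The other genes of the replication pathway were grouped by role. Of 87 such genes with values 0 passed the limma threshold in either direction, 17 were lower and 3 higher at an unadjusted p under 0.05 (6.19% and 5.31% of all genes), and 60 were below 0 (52.7% of all genes), with a median log2 fold change of -0.08. Without PBS 3 and PBS 5, 10 of the 87 had an unadjusted p under 0.05, beside 4137 of all 19170 genes. In that fit 52 of the 87 were below 0 (52.6% of all genes), with a median of -0.04. The threshold was passed by 6 of the 87, beside 1967 of all genes (10.3%). The origin recognition complex, which marks the origins, had 2 of 6 subunits below 0 and a median of 0.02. Its lowest member Orc1, the subunit that oscillates with the cell cycle, was at 21.6 ± 3.19 normalized counts in PBS-treated and 17.1 ± 3.58 in DT-treated mice, with a log2 fold change of -0.33 (SE 0.21, limma adjusted p = 0.572), and Orc2 was at 0.10 (limma adjusted p = 0.608). Among 13 genes of licensing control, Gmnn was at 0.07 (SE 0.14, limma adjusted p = 0.882). The smallest p-values there belonged to Dtl, the receptor of the ligase that destroys CDT1, at -0.42 (limma adjusted p = 0.242), and to Dbf4, the activator of the kinase that fires loaded rings, at 0.26 (limma adjusted p = 0.203).

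Factors that join or stabilise the active helicase had 11 of 13 values below 0 and a median of -0.15. Wdhd1, which ties the helicase to DNA polymerase alpha, was at 142 ± 16.6 normalized counts in PBS-treated and 104 ± 19.6 in DT-treated mice, a log2 fold change of -0.45 (SE 0.13, limma adjusted p = 0.209). Gins4, a subunit of GINS, lay on the other side at 0.20 (SE 0.08, limma adjusted p = 0.356). The 22 genes of the fork had a median of -0.06, with the ligase Lig1 at -0.30 (limma adjusted p = 0.223) and the single-strand binding subunit Rpa3 at 0.22 (limma adjusted p = 0.499). All 6 genes of nucleotide supply were below 0, with a median of -0.18 and Tk1, thymidine kinase, at -0.34 (limma adjusted p = 0.347). The 13 genes of E2F factors and pocket proteins had a median of -0.03, with E2f2 at -0.20 (limma adjusted p = 0.357) and Tfdp1, a dimer partner of E2F, at 0.10 (limma adjusted p = 0.377). The 4 other MCM genes, which are not part of the ring, had a median of 0.04, with Mcm9 at 0.11 (limma adjusted p = 0.644) and Mcmdc2 at -0.06 (SE 0.53, limma adjusted p = 0.982). Mcmdc2 averaged only 1.77 normalized counts, near the floor, so its value says little.

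Of 10 proliferation markers 9 were below 0, with a median of -0.10. Mki67, which is present in cycling cells, was at 4161 ± 441 normalized counts in PBS-treated mice (SD, n = 5) and 3360 ± 394 in DT-treated mice (SD, n = 6). Its log2 fold change of -0.31 (SE 0.08, limma adjusted p = 0.180) had the smallest p of the 87 genes. Cdc20, an activator of the ligase that ends mitosis, was at 0.03 (limma adjusted p = 0.903). Across mice Mki67 had r = -0.11 with the ring, or 0.28 without PBS 3 and PBS 5, and the other 9 markers had r from 0.30 (Ccnb1) to 0.88 (Cdk1).

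**Figure D5:**
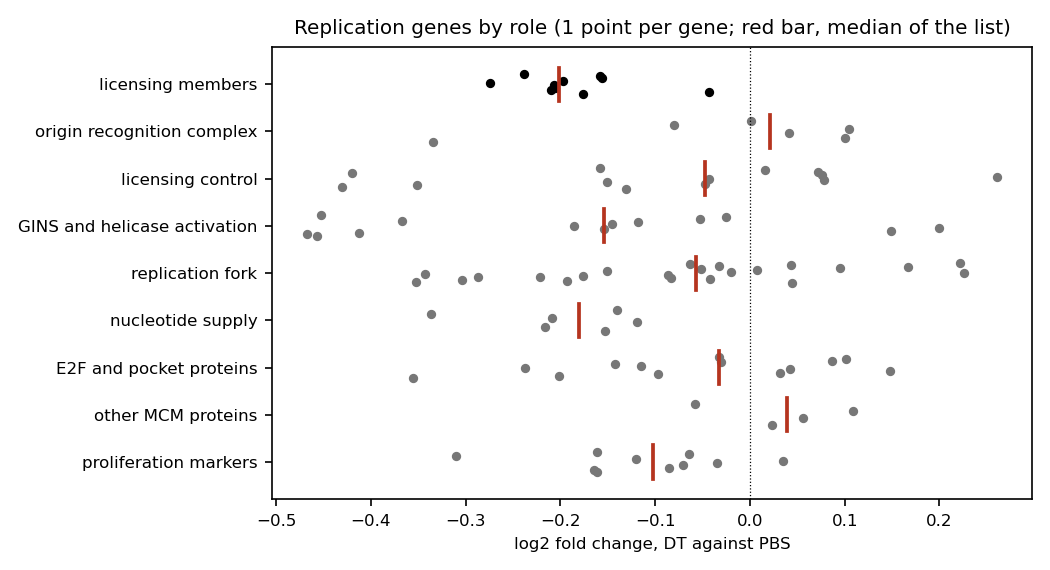
Log2 fold change of the 10 licensing genes (black) and of 87 other replication genes (grey) by role, DT against PBS, with 1 point per gene and a red bar at the median of each list. The licensing genes lie between -0.27 and -0.04, and the medians of the other lists run from -0.18 for nucleotide supply to 0.04 for the other MCM genes.

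Mcm4, Mcm7 and Cdc45 each start beside a gene on the other strand, and of these neighbours Prkdc passed the test. Prkdc, which encodes the catalytic subunit of DNA-dependent protein kinase, starts 466 bases from Mcm4 in the opposite direction. From PBS 1 to PBS 5 it was at 404, 307, 309, 412 and 360 normalized counts, and DT-treated mice lay between 255 and 281, so that the groups did not overlap, as in 0.751% of all genes for lower values in DT-treated mice. The log2 fold change was -0.42 (SE 0.08), and limma gave an adjusted p of 0.055. Mcm4, at the same promoter region, was at -0.20 and did not pass, and the difference between the 2 genes was not tested. Prkdc did not follow the ring across mice (r = -0.06).

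Ap4m1, a subunit of an adaptor complex, starts within Mcm7 on the other strand and was at -0.04 (limma adjusted p = 0.901), and Ufd1, a cofactor of protein degradation, starts within Cdc45 and was at -0.01 (limma adjusted p = 0.977). The overlaps are 421 and 209 bases long. Cops6 overlaps the other end of Mcm7 by 64 bases. The strand setting of the counting was not given in the sources used here, and reads in these overlaps could be assigned to neither gene or to the wrong one. Mir25, Mir93 and Mir106b lie inside Mcm7, and Gm20388 overlaps Cdt1 on the same strand. These 4 genes are listed without values.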

How the data were processed

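RNA of gingival epithelium from 11 mice was sequenced after poly(A) selection. Per the methods, the authors removed low-quality bases and reads, mapped the rest to GRCm38 by TopHat with the annotation of Ensembl release 89, counted reads per gene with htseq-count, left out genes with fewer than 10 reads in all, and divided by DESeq2 size factors. The submitters' processing notes name GRCm39, cutadapt 2.10, TopHat2 2.1.1, HTSeq 2.01 and DESeq2 1.36.0 instead. The deposited values are thus normalized counts. Of 55414 genes listed, 19170 had values.

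Reads per mouse were recovered from the step between values (tolerance 0.1 of a read) and used for depth only. Intervals from read numbers cover counting error only. The log2(normalized count + 1) values of DT and PBS were compared by limma 3.58.1 (R 4.3.3, intensity trend, no covariate), all 19170 genes entered the Benjamini-Hochberg adjustment, and calls used the study's threshold of 0.1. The p-values set the difference between the groups against the spread between these mice, moderated over all genes. The test and the likeness measure were tested on simulated data, where the list of closest genes was recovered almost whole at low noise but missed many true followers when noise approached the signal, so that list is not complete.

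The members and gene lists were chosen with earlier results of these data known. Named were all members, the gene with the smallest p in each direction per list (a few others were singled out after their values were seen), Gmnn, Orc1, Mki67, Cd207, the 5 genes most like the ring and genes starting within 1 kb of a member on the other strand. Gene positions, exons and lengths come from GENCODE M21 (GRCm38), which held 19121 of the genes. Promoter sequences come from RefSeq. Titles number the mice of both groups. Deviations of same-numbered mice correlated between -0.23 and 0.32, so the numbers were not used as pairs. Alternatives were other pseudocounts, a filter, 2 scalings, array weights, replicate blocks and left-out mice.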

Additional observations from a re-analysis of the deposited data

How the results depend on the processing

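The 10 members gave 0 calls in each of 20 alternatives, and their median log2 fold change stayed below 0, between -0.27 and -0.12 with each mouse left out in turn and -0.08 without PBS 3 and PBS 5. The difference of the ring mean stayed between -0.28 and -0.15 with each mouse left out and was -0.07 without PBS 3 and PBS 5, and the count of other replication genes called was 0 or 1 with each mouse left out (Mki67 without PBS 3, Tk1 without PBS 4). Without PBS 3 and PBS 5 that count was 6 of 87 (Mki67, Wdhd1, Rb1 and Cdk2 lower, Dbf4 and Gins2 higher), beside 10.3% of all genes. The p-values of that fit can be too small, since the mice left out were chosen from the same values. Cdc6 turned positive with array weights (0.021), quantile normalization (0.059), a replicate block by library number (0.018) and without DT 5 (0.018), PBS 1 (0.035) or PBS 4 (0.084), and ranged from -0.23 to 0.084 with each mouse left out. Mcm5 turned to 0.041 without PBS 3 and PBS 5. The causes were not tested.

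The count over all genes, 107, was 189 with array weights and 1967 without PBS 3 and PBS 5. It ran from 27 to 259 with each mouse left out, past 1.5 times the full count in either direction without PBS 1, PBS 2, PBS 4, PBS 5, DT 1, DT 3, DT 4, DT 5 or DT 6. No label says whether the numbers in the titles pair the mice. A replicate block by title number called 35 genes, while a block by library number called 0 in limma (1404 at an unadjusted p under 0.05). The median r of Cdt1, Mcm10, Cdc45 and Cdc6 with the ring, 0.65 in full, ran from 0.56 to 0.80 with each mouse left out. Tests on recovered reads with edgeR and DESeq2, which had been planned, were not run, although whole reads could be recovered in every mouse. Counting error limits Cdc6, Cdc45 and Mcm10 most, at 15.1%, 11.3% and 12.9% of the mean.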

Other observations

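Within the replication lists, 18 of 87 genes had a negative r with the ring over the 11 mice. Over the 10019 genes averaging 100 or more normalized counts the median r was 0.02, so values near or below 0 were common among all genes. E2f3, an activator among the E2F factors, had r = -0.82, and Cul4a, the scaffold of the ligase that destroys CDT1, had r = -0.76. These were picked out after their values were seen, and neither passed the test between groups (log2 fold changes of -0.10 and 0.08, limma adjusted p = 0.738 and 0.549). The fibroblast markers had r = -0.57 with the ring and 4 junctional epithelium markers r = 0.69. Without PBS 2 and PBS 4 these values were -0.20 and 0.73.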
